A study of Mus musculus with 8 samples.

Results

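The 8 genes described here encode components that carry a signal from a receptor through phosphatidylinositol 3-kinase (PI3K) to the kinase AKT: the adaptors Irs1 and Irs2, the regulatory subunits Pik3r1 and Pik3r3, the catalytic subunits Pik3ca and Pik3cb, and the kinases Akt1 and Akt2. They were taken by gene symbol from 23420 genes in the count tables, and all 8 passed the filter on low counts that left 14598 genes for testing. Messenger RNA selected by its poly(A) tail was sequenced from stromal cells of the mouse uterus at day 3, with 4 libraries under each of the labels Erbb3f/f and Erbb3d/d. In common mouse notation, f stands for a loxP-flanked allele and d for one that Cre has deleted. The Cre line, the event from which the days are counted, the age and strain of the females, and whether animals were pooled are not given in the sources used here. Nothing says that the 4 libraries of a label came from separate animals, so p-values measure the spread between these libraries, which may be technical.

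ERBB3 is a member of the epidermal growth factor receptor family with very weak kinase activity of its own. Once it pairs with another ERBB receptor, its phosphorylated tail binds the regulatory subunit of class IA PI3K directly, and the lipid product of the enzyme brings AKT to the membrane, where it is activated. The insulin receptor substrates do the same work for the insulin and IGF1 receptors, which have few docking sites for PI3K themselves. Active AKT in turn keeps FOXO transcription factors out of the nucleus. These are steps of protein modification, and RNA levels describe how much messenger RNA of each gene was present, not how active its protein was.

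Reads assigned to genes numbered 8578575 to 12854367 per library, of which 10892 to 15018 came from the 8 members, and levels are given as CPM, counts scaled to a common library size. Erbb3 itself had no lower mean under the label Erbb3d/d: it had 7.40, 10.6, 8.24 and 12.3 CPM in Erbb3f/f replicates 1 to 4 and 7.36, 14.3, 17.6 and 16.2 CPM in Erbb3d/d replicates 1 to 4. The exons that the d allele lacks are not given in the sources used here, and counts summed per gene cannot show them. Directions below therefore follow the labels only. Stromal markers had the largest summed level of the cell types checked, 14203 to 18025 CPM over 14 genes in the libraries labelled Erbb3f/f and 12088 to 16460 CPM in those labelled Erbb3d/d, and 5 of the 14 were lower at an unadjusted p under 0.05. Of 15 epithelial markers 14 had a higher mean in the libraries labelled Erbb3d/d, 12 of them at an unadjusted p under 0.05, with sums of 1002 to 1656 CPM against 1545 to 2547 CPM. Of 11 smooth muscle markers 10 had a higher mean, all 10 at an unadjusted p under 0.05, with sums of 1825 to 3030 CPM against 2929 to 6112 CPM. None of these epithelial, smooth muscle and stromal markers was at 0 in any library. The part of these other cells in the values below was not tested, and in bulk RNA fewer cells of a type and less RNA per cell cannot be told apart.

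Over the whole table, edgeR's quasi-likelihood test called 0 of 14598 genes (0%) at an adjusted p under 0.05, while 1695 genes (11.6%) had an unadjusted p under 0.05. No member was called at an adjusted p under 0.05 by edgeR, nor by DESeq2, which called 262 of 14593 genes (1.8%). Without Erbb3d/d replicate 2 edgeR called 259 of 14774 genes (1.75%), again with no member among them. At the unadjusted level 2 of the 8 members passed, Irs1 and Irs2, both with a higher mean in the libraries labelled Erbb3d/d, as 6.64% of all genes had, and 0 had a lower mean at that level, as 4.97% of all genes had. Nothing about the group is read from 2 of 8 genes that were listed with results known. The median log2 fold change of the 8 was 0.08, against -0.01 over all genes tested.

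**Figure D1:**
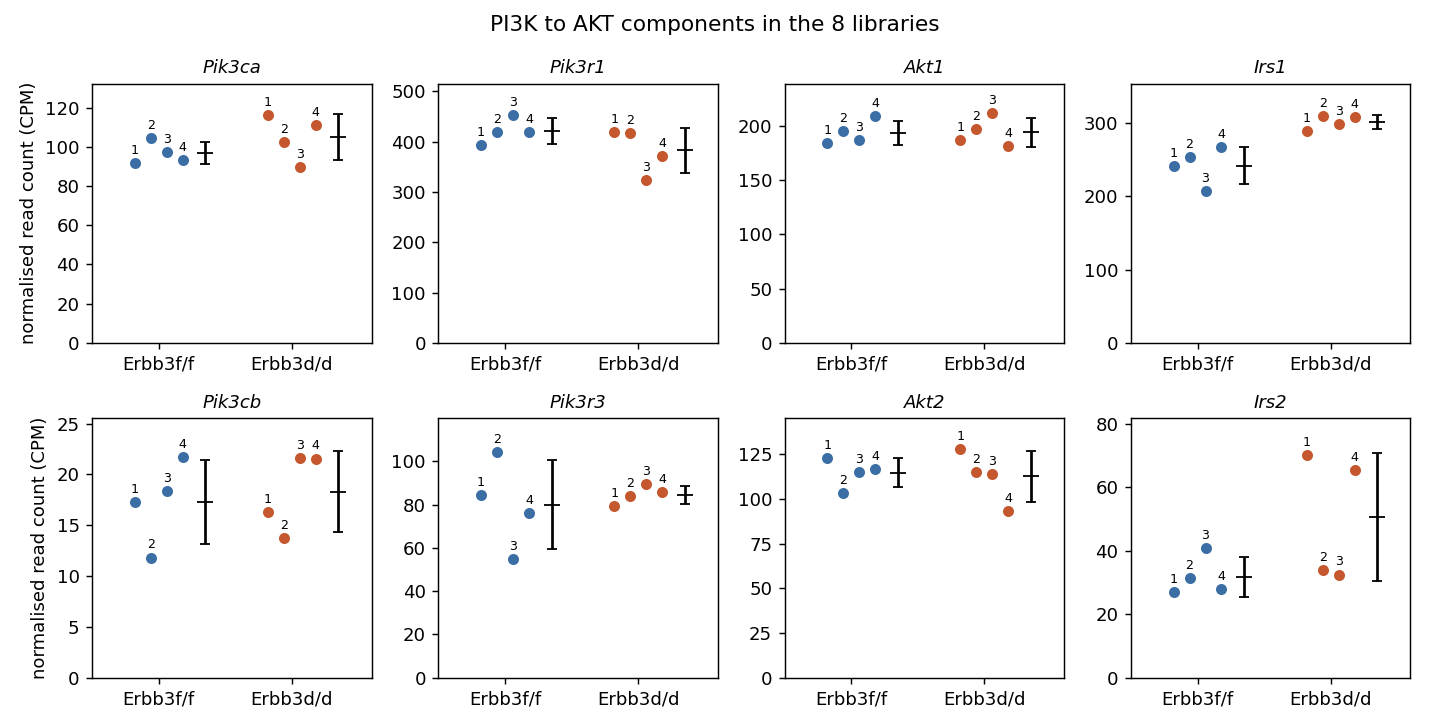
Normalised read counts (CPM, y axis from 0) of the 8 members; each point is a library, numbered by replicate, and the bar gives the mean and SD of 4 libraries per label. The points of the 2 labels are separate for Irs1 only, and Irs2 is high in Erbb3d/d replicates 1 and 4.

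The adaptors come first in the pathway. Irs1 encodes insulin receptor substrate 1, a docking protein that is phosphorylated by the insulin and IGF1 receptors and then binds PI3K. It lies on chromosome 1 at 82233101 to 82291416 (minus strand, in the GENCODE vM21 annotation of GRCm38), in 2 exons. It had 241, 253, 207 and 267 CPM in Erbb3f/f replicates 1 to 4 and 289, 309, 299 and 308 CPM in Erbb3d/d replicates 1 to 4. All 4 libraries labelled Erbb3d/d thus lay above all 4 labelled Erbb3f/f, and the former were also closer together. The means were 242 ± 25.7 and 301 ± 9.46 CPM (SD, n = 4 each). The fold change was 1.25 with a 95% interval of 1.08 to 1.44 that is not adjusted for the number of genes (log2 fold change 0.32, SE 0.09). The adjusted p of Irs1 was 0.294 with edgeR and 0.0738 with DESeq2, the lowest of 14 alternatives that reached up to 0.648, so the difference did not pass over all genes. Groups that did not overlap were found for 1 of 8 members and for 737 of the 14598 genes (5.05%), and with the higher values under the label Erbb3d/d for 2.57% of them. Exact permutation tests, two-sided and run for each of the 8 members, gave 0.0286 for Irs1, the smallest value that 70 assignments can give, and 0.143 or more for the other 7. The libraries did not keep strand, and 2822 bases of Irs1 exons are shared with the gene Gm9747 on the other strand, whose reads cannot be told apart from those of Irs1.

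Irs2, the other main substrate of the same receptors, varied more from library to library. The gene spans bases 10984681 to 11008458 of chromosome 8 (minus strand), also in 2 exons. Its level was 26.9, 31.4, 40.9 and 27.9 CPM in Erbb3f/f replicates 1 to 4 and 70.3, 34.0, 32.5 and 65.6 CPM in Erbb3d/d replicates 1 to 4. Erbb3d/d replicates 1 and 4 stood above every other library, while replicates 2 and 3 lay within the range of the libraries labelled Erbb3f/f. The means were 31.8 ± 6.39 and 50.6 ± 20.1 CPM (SD, n = 4 each), a fold change of 1.59 with a 95% interval of 1.04 to 2.43. The adjusted p was 0.397 by edgeR. Without Erbb3d/d replicate 1 the log2 fold change of Irs2 was 0.47 in place of 0.67, and without replicate 4 it was 0.53. The smooth muscle sum was 6112, 3330, 2929 and 3776 CPM in Erbb3d/d replicates 1 to 4, and the sum of 13 immediate early and heat shock genes, which respond to handling, was 12823, 6603, 7726 and 8898 CPM. Under this label both sums were thus highest in the replicates in which Irs2 was high. The epithelial sum was not: it was 1545, 1593, 2509 and 2547 CPM in the same order, lowest in replicate 1. In Erbb3f/f replicates 1 to 4 the smooth muscle sum was 3013, 3030, 1825 and 2247 CPM. It was lowest in replicate 3, where Irs2 was highest of that label. The immediate early and heat shock sum was 8710, 4485, 7945 and 6944 CPM in the same order, highest in replicate 1. The part of these genes in the level of Irs2 was not tested.

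The start regions of the insulin receptor substrate genes were read because both adaptors had their higher mean under the same label, and they share a stretch of sequence. The RefSeq table of promoters (GRCm38.p6, 250 bases before to 50 after each annotated start) held all 8 members, with 15 windows among them. A set of 4 short motifs was searched on both strands. They were TGTTTAC (a motif of forkhead factors, the family of FOXO, which bind further motifs) and TGTTTTG (the core of the insulin response element). The others were CACGTG (the E box of basic helix-loop-helix factors) and TGTTCT (a steroid receptor half-site). An E box and TGTTTTG were both found in the windows of Irs1 and Irs2 and in no other member's window. In both they lie side by side. TGTTTTG follows the E box in the direction of the gene, with its first base within 10 bases of the first base of the E box. The Irs1 window also holds another TGTTTTG, which begins 32 bases before the start, away from the E box. The limit of 10 bases and the order, with TGTTTTG after the E box, were set after these windows were seen. Both motifs occur anywhere in the window in 134 of 32851 windows of the same length (0.408%). Under the limit and in that order, on either strand, 9 of the 32851 windows (0.0274%) hold the pair. These include the window of Irs4, another substrate gene. Pairs in another order or orientation were not counted. The 3 stretches of 61 bases are shown so that the shared letters can be compared, 5′ to 3′ in the direction of the gene, with the E box and TGTTTTG in capitals.
Irs1: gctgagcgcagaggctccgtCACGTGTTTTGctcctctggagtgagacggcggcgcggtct
Irs2: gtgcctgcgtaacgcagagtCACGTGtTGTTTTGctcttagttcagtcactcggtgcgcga
Irs4: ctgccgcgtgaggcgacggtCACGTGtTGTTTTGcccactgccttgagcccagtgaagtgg
They lie at chr1:82291514-82291574, chr8:11008933-11008993 and chrX:141725331-141725391, all on the minus strand. The E box begins 115 bases before the RefSeq start in Irs1, 44 in Irs2 and 154 in Irs4. For both Irs1 and Irs2 the RefSeq start lies upstream of the GENCODE one, by far more bases in Irs2. In Irs2 and Irs4 a single T separates the motifs, and in Irs1 they overlap by TG. A match is a description of letters, not of binding. Singly, CACGTG occurs in 7.15% of all windows, TGTTTTG in 6.28%, TGTTTAC in 3.65% and TGTTCT in 19% of them, and among the members' windows TGTTTAC was found in 1 of the 2 windows of Akt1 only.

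The tested genes that carry this pair were also compared between the labels. For Irs4 the reads of replicates 1 to 4 were 24, 23, 11 and 1 under the label Erbb3f/f, and 13, 10, 20 and 20 under Erbb3d/d. The counts are too few to place its log2 fold change of 0.02 closely (SE 0.63). Klf11, a Krüppel-like repressor, Pcbp1, an RNA-binding protein, and Pyroxd1, an oxidoreductase, had log2 fold changes of 0.27 (SE 0.19), -0.03 (SE 0.09) and -0.04 (SE 0.15). Their adjusted p-values were 0.618, 0.912 and 0.935 by edgeR. The remaining genes with the pair were not analysed here.

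The gene 9530052E02Rik lies on the other strand and shares 162 bases of exon with Irs2. Its reads in replicates 1 to 4 numbered 26, 14, 26 and 23 under the label Erbb3f/f, and 58, 26, 20 and 57 under Erbb3d/d. Its highest libraries were the same Erbb3d/d replicates 1 and 4 as those of Irs2. Since the libraries did not keep strand, reads of the shared bases cannot be told apart. By edgeR its log2 fold change was 0.82 (SE 0.43; adjusted p = 0.485).

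Genes with the pattern of Irs2 over the 8 libraries were sought among 11037 other genes of at least 10 CPM, by the root mean square difference of log2(CPM + 0.5) after each gene's own mean was removed. The nearest was Stx11, a syntaxin of membrane fusion, at a difference of 0.15, followed by Gm6377 at 0.18 and Otud1, a deubiquitinase, at 0.19. Stx11 had 10.3, 11.7, 20.1 and 11.3 CPM in Erbb3f/f replicates 1 to 4 and 23.5, 12.5, 13.2 and 25.2 CPM in Erbb3d/d replicates 1 to 4. Otud1 had 26.6, 28.7, 30.1 and 21.5 CPM and then 49.0, 32.3, 27.1 and 44.1 CPM in the same order. Each of the 3 genes was highest in Erbb3d/d replicates 1 and 4. They were chosen for this likeness, and their values are a description.

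**Figure D2:**
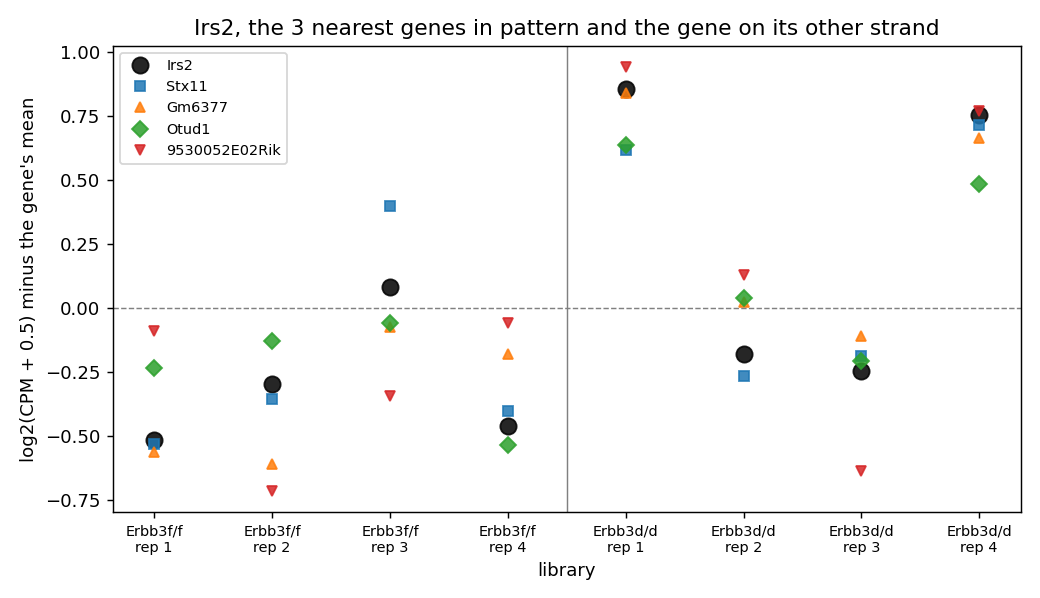
Level of Irs2, the 3 genes nearest to it in pattern and the other-strand gene 9530052E02Rik in each library, as log2(CPM + 0.5) minus the gene's mean over the 8 libraries. All 5 genes are highest in Erbb3d/d replicates 1 and 4.

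The regulatory subunits hold the catalytic subunit stable and inhibited until they bind a phosphorylated receptor or adaptor. Pik3r1, which encodes p85 alpha and its shorter forms, lies on chromosome 13 at 101680563 to 101768217. It had 393, 420, 454 and 419 CPM in Erbb3f/f replicates 1 to 4 and 419, 417, 324 and 371 CPM in Erbb3d/d replicates 1 to 4. Erbb3d/d replicates 3 and 4 lay below all other libraries, and replicates 1 and 2 among those labelled Erbb3f/f. The fold change was 0.908, with a 95% interval of 0.775 to 1.06 (adjusted p = 0.630, edgeR). Pik3r3, which encodes p55 gamma, lies on chromosome 4 at 116221618 to 116303056. It had 84.4, 104, 54.9 and 75.9 CPM in Erbb3f/f replicates 1 to 4 and 79.3, 83.9, 89.3 and 85.6 CPM in Erbb3d/d replicates 1 to 4. The libraries labelled Erbb3f/f spread around the others on both sides, and the fold change was 1.06 (95% interval 0.824 to 1.36). Part of a Pik3r3 exon is shared with Gm49337 on the same strand, so that its count is uncertain to that extent.

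The catalytic subunits make the lipid that recruits AKT. Pik3ca, which encodes p110 alpha, the form that acts for most tyrosine kinase receptors, lies on chromosome 3 at 32397671 to 32468486. It had 91.9, 104, 97.4 and 93.3 CPM in Erbb3f/f replicates 1 to 4 and 116, 103, 89.7 and 111 CPM in Erbb3d/d replicates 1 to 4. The groups overlapped, with both the highest and the lowest library under the label Erbb3d/d, and the fold change was 1.09 (95% interval 0.933 to 1.26). Pik3cb, which encodes p110 beta, the form that also takes signals from G protein-coupled receptors, lies on chromosome 9 at 99036654 to 99140621. It had 17.3, 11.8, 18.4 and 21.7 CPM in Erbb3f/f replicates 1 to 4 and 16.3, 13.7, 21.6 and 21.6 CPM in Erbb3d/d replicates 1 to 4, from 113 to 275 reads. Its groups overlapped throughout, and the fold change was 1.06 (95% interval 0.765 to 1.47). The genes nearest to Pik3cb in pattern were Ppp1r13l, Serpinb6b and Tcirg1, at root mean square differences of 0.11, 0.12 and 0.13, and Serpinb6b belongs to a family of close copies whose reads may be split.

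The AKT kinases are the effectors of the pathway. Akt1, the form tied to growth and survival, lies on chromosome 12 at 112653821 to 112674884. It had 184, 195, 187 and 209 CPM in Erbb3f/f replicates 1 to 4 and 187, 197, 212 and 181 CPM in Erbb3d/d replicates 1 to 4. The groups covered the same range, with means of 194 ± 11.1 and 194 ± 13.4 CPM (SD, n = 4 each). The log2 fold change of Akt1 was 0.00 (SE 0.08), and the 95% interval of its fold change, 0.882 to 1.14, was the narrowest of the 8. Akt2, the form best known for insulin-driven glucose uptake, lies on chromosome 7 at 27591552 to 27640826. It had 123, 104, 115 and 117 CPM in Erbb3f/f replicates 1 to 4 and 128, 115, 114 and 93.4 CPM in Erbb3d/d replicates 1 to 4. Its groups overlapped as well, and the fold change was 0.983 (95% interval 0.835 to 1.16).

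**Figure D3:**
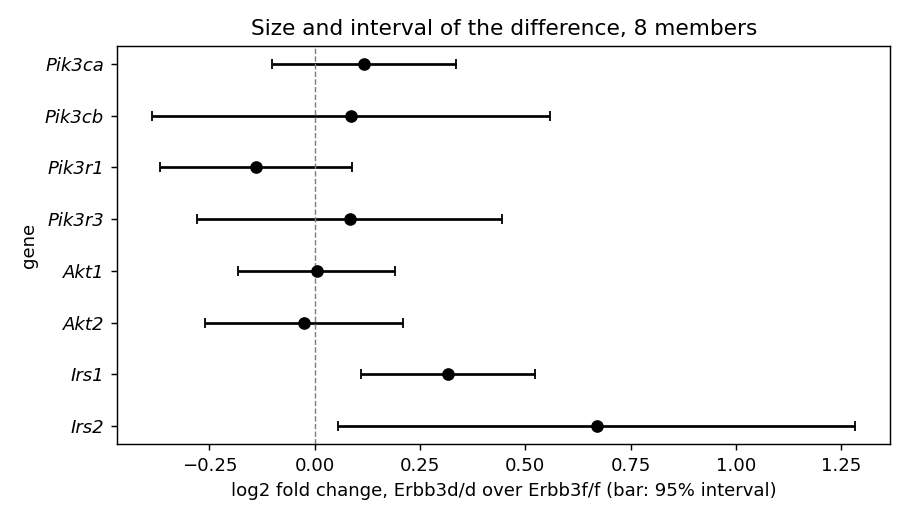
Log2 fold change of the 8 members, Erbb3d/d over Erbb3f/f by the labels, with 95% intervals that are not adjusted for the number of genes. The intervals of Irs1 and Irs2 lie above 0 and the other 6 include 0.

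Per length, the members differed from each other far more than between the labels. Per kilobase of exon, the mean over the 8 libraries was 47.3 CPM for Akt1, 39.9 for Pik3r1, 29.7 for Irs1, 15.9 for Akt2, 15.5 for Pik3r3, 11.1 for Pik3ca, 6.51 for Irs2 and 2.48 for Pik3cb. With these lengths Akt2 and Pik3r3 could not be ordered. Akt2 ranged from 13.1 to 17.9 and Pik3r3 from 10.4 to 19.7 CPM per kilobase. Akt1 ranged from 44.2 to 51.7 and Pik3r1 from 32.2 to 45.0, so their ranges overlapped, but within each library Akt1 was higher. The range of Irs1 reached 33.8 CPM per kilobase and overlapped that of Pik3r1. Pik3ca ranged from 9.87 to 12.8, overlapping Pik3r3 above it. Irs2 ranged from 4.25 to 11.1 CPM per kilobase, and its overlap with Pik3ca came from Erbb3d/d replicates 1 and 4. Within each library, though, Pik3ca was above Irs2. Pik3cb, at 1.64 to 3.01, lay below every other member in every library. The order of the means was the same with the exon lengths of the GENCODE basic transcript set. With that set Akt2 lay above Pik3r3 within each library. The means were then 23.5 (range 19.4 to 26.5) for Akt2 and 15.6 (range 10.4 to 19.9) CPM per kilobase for Pik3r3. The placing of these genes thus depended on the annotation.

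The balance within each pair was compared inside a library, where the scaling between libraries drops out. On the log2 scale per kilobase, Akt2 over Akt1 ran from -1.71 to -1.38 under the label Erbb3f/f and from -1.76 to -1.35 under Erbb3d/d. Pik3cb over Pik3ca ran from -2.81 to -1.77 and from -2.56 to -1.71. Both pairs thus kept the same leading form, Akt1 and Pik3ca, in all 8 libraries. Pik3r3 over Pik3r1 ran from -2.12 to -1.08 and from -1.47 to -0.93. Irs2 over Irs1 ran from -2.72 to -1.81 under Erbb3f/f. Under Erbb3d/d it was -1.51, -2.65, -2.67 and -1.70 in replicates 1 to 4, with replicates 1 and 4 above every other library and the rest within the Erbb3f/f range.

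The receptors that feed this pathway differed in direction. Insr, the insulin receptor, ranged from 97.7 to 125 CPM over all 8 libraries. Igf1r, the IGF1 receptor, ranged from 113 to 141 CPM under the label Erbb3f/f and from 131 to 178 CPM under Erbb3d/d. Erbb2, the usual partner of ERBB3, ranged from 22.1 to 34.2 and from 31.3 to 42.2 CPM. Egfr ranged from 91.3 to 164 and from 47.9 to 111 CPM, the other way. The groups of all 4 receptors overlapped. Igf1r, Erbb2 and Egfr had unadjusted p-values of 0.0381, 0.0380 and 0.0110 in the edgeR fit, and none of the 4 was called over all genes (smallest adjusted p = 0.313 by edgeR, for Egfr). Without Erbb3d/d replicate 2 edgeR called Egfr, with a log2 fold change of -1.09 and an adjusted p of 0.0355, where the 14 alternatives ran from that value to 0.702.

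Of 66 other genes of the pathway, grouped by role, 65 were tested. No gene of these was called by edgeR, 7 had a higher and 3 a lower mean in the libraries labelled Erbb3d/d at an unadjusted p under 0.05, and the median log2 fold change was 0.02 against -0.01 over all genes. These 10 genes make 15.4% of the list, near the 11.6% of all genes. Without the transcripts known to be raised by FOXO factors, 6 of 51 genes passed that level, or 11.8%. The inhibitors and phosphatases of AKT had 0 of 5 genes at that level, though all 5 had a higher mean in the libraries labelled Erbb3d/d. The class IB subunits had 0 of 3, and 2 of these had a higher mean. Of all 14598 genes 7004 had a higher mean, and nothing about either role is read from so few genes.

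Among the genes with a lower mean, Grb10, an adaptor that restrains the insulin and IGF1 receptors, had 399, 387, 326 and 308 CPM in Erbb3f/f replicates 1 to 4 and 252, 336, 240 and 224 CPM in Erbb3d/d replicates 1 to 4. Only Erbb3d/d replicate 2 reached into the range of the libraries labelled Erbb3f/f. Its fold change was 0.741 (95% interval 0.599 to 0.917; adjusted p = 0.311, edgeR). Without Erbb3d/d replicate 2 its adjusted p was 0.0401 by edgeR, against up to 0.701 over all alternatives. Mtor, the kinase of both mTOR complexes, had 48.8, 53.1, 48.3 and 46.1 CPM in Erbb3f/f replicates 1 to 4 and 40.2, 46.4, 40.5 and 33.8 CPM in Erbb3d/d replicates 1 to 4. The groups overlapped by 1 library, and the fold change was 0.819 (adjusted p = 0.377, edgeR). Pik3r2, which encodes the regulatory subunit p85 beta, had a fold change of 0.851. In Pik3r2 too, Erbb3d/d replicate 2 with 101 CPM lay among the libraries labelled Erbb3f/f, which had 99.3 to 109 CPM, and the other Erbb3d/d libraries had 74.3 to 90.9 CPM.

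**Figure D4:**
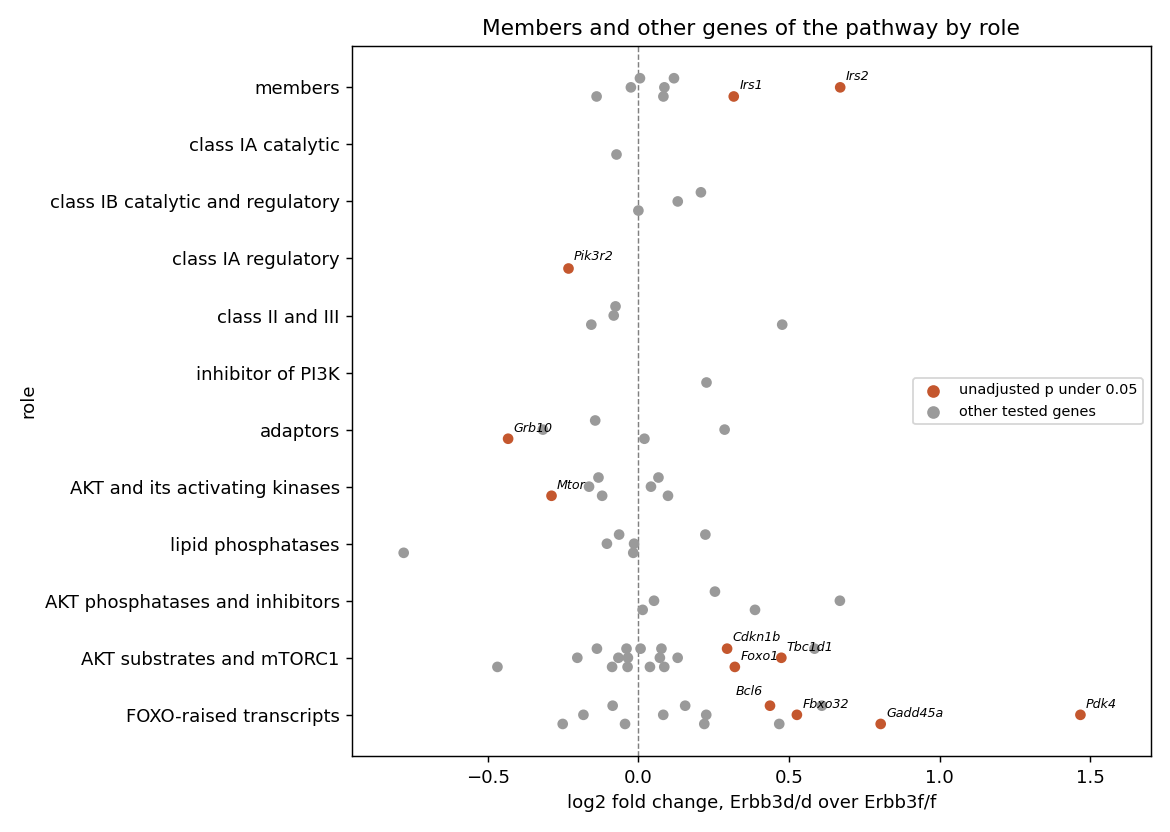
Log2 fold change, libraries labelled Erbb3d/d over Erbb3f/f, of the 8 members and of 65 other tested pathway genes by role; each point is a gene. Genes with an unadjusted p under 0.05 are coloured and named, and 4 of them are FOXO-raised transcripts, of which Pdk4 lies farthest right at 1.47.

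Among 18 AKT substrates and mTORC1 components, 3 passed the unadjusted level, all with a higher mean. This share of 16.7% stands beside 11.6% of all genes in either direction and 6.64% with a higher mean, and nothing about the list is read from it. Tbc1d1, a Rab GTPase-activating protein that AKT phosphorylates in glucose uptake, had 77.2, 83.8, 76.5 and 78.7 CPM in Erbb3f/f replicates 1 to 4 and 123, 87.4, 109 and 120 CPM in Erbb3d/d replicates 1 to 4. The groups did not overlap, the fold change was 1.39 (95% interval 1.17 to 1.65), and the adjusted p was 0.216 in edgeR and 0.0207 in DESeq2. Foxo1, the transcription factor that AKT keeps out of the nucleus, had 125, 143, 128 and 104 CPM in Erbb3f/f replicates 1 to 4 and 149, 133, 168 and 175 CPM in Erbb3d/d replicates 1 to 4. Erbb3d/d replicate 2 lay within the other label's range and the rest above it, and the fold change was 1.25 (95% interval 1.04 to 1.50; adjusted p = 0.347, edgeR). Cdkn1b, the cell cycle inhibitor p27, had 75.0, 82.3, 93.5 and 73.6 CPM and then 112, 86.5, 87.7 and 112 CPM in the same order. Its high libraries were Erbb3d/d replicates 1 and 4, as for Irs2, and its fold change was 1.23 (95% interval 1.02 to 1.48).

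Of 14 transcripts known to be raised by FOXO factors, 10 had a higher mean in the libraries labelled Erbb3d/d, as 7004 of all 14598 genes had. At an unadjusted p under 0.05 were 4 of them, and the median log2 fold change was 0.22 against -0.01 over all genes. The 4 genes are 28.6% of this short list, beside 11.6% of all genes in either direction and 6.64% with a higher mean. The list was chosen with earlier results known, and nothing about it is read from this share. Pdk4, a kinase that turns off pyruvate oxidation, had 7.20, 5.96, 3.37 and 4.74 CPM in Erbb3f/f replicates 1 to 4 and 18.9, 8.74, 10.5 and 20.4 CPM in Erbb3d/d replicates 1 to 4. The groups did not overlap, and Erbb3d/d replicates 1 and 4 were again the highest libraries. Its fold change was 2.77 (95% interval 1.67 to 4.58), with an adjusted p of 0.203 in edgeR and 0.00423 in DESeq2. Fbxo32, the ubiquitin ligase atrogin-1, had 270, 436, 270 and 264 CPM and then 516, 444, 325 and 501 CPM in the same order, with Erbb3d/d replicates 1 and 4 highest once more. Gadd45a, a stress-induced growth arrest gene, had 39.8, 26.4, 29.2 and 36.1 CPM and then 64.4, 33.3, 64.6 and 66.8 CPM, and its adjusted p was 0.280 in edgeR and 0.0388 in DESeq2. Here Erbb3d/d replicate 2 alone lay within the range of the other label. Bcl6, a transcriptional repressor, was the remaining gene of the 4 and is named after its values were seen, with a fold change of 1.35. Trib3, an inhibitor of AKT named for the same reason, was together with Tbc1d1 and Pdk4 1 of 3 genes among the 65 whose groups did not overlap, beside 5.05% of all genes. DESeq2 called Pdk4, Tbc1d1 and Gadd45a of the 65 genes, beside 1.8% of all genes. Without Erbb3d/d replicate 2, edgeR called these 3 as well, with adjusted p-values of 0.0341, 0.0190 and 0.0143. Over their 14 alternatives the adjusted p reached 0.547 for Pdk4, 0.566 for Tbc1d1 and 0.648 for Gadd45a. These fold changes stand beside the higher smooth muscle and epithelial sums and the immediate early and heat shock sums of 4485 to 8710 CPM under the label Erbb3f/f and 6603 to 12823 CPM under Erbb3d/d, whose part in them was not tested.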

How the data were processed

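Polyadenylated RNA of 8 mouse uterine stromal cell libraries was sequenced from both fragment ends without strand information, per the labels' protocols. The authors deposited raw counts per gene symbol, 1 table per library, and the submitters' processing notes name HISAT2, SAMtools, HTSeq and StringTie and the build mm10 (GRCm38). Versions, annotation and counting options are not given in the sources used here. The 5 closing lines of each library's file name no gene. They held 70.9% to 73.0% of all entries and were left out.

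Groups and replicate numbers came from the titles. Counts were fitted in R 4.3.3 with edgeR 4.0.16 (filterByExpr, TMM, robust glmQLFit and glmQLFTest, intercept and genotype), p-values were adjusted over 14598 genes by Benjamini-Hochberg at 0.05, and intervals used the model's degrees of freedom. DESeq2 1.42.0 was an alternative, with other scalings, no filter, the replicate number as a block, and each library left out. The fits were tested on simulated data. Replicates differed by more than sampling noise in all pairs (chi-square per degree of freedom 13.5 or more). Exact permutation tests used log2(CPM + 0.5). Exon lengths came from GENCODE vM21 and promoters from RefSeq, both on GRCm38.

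The members and lists were chosen with earlier results of these data known. Genes named were all members, the other pathway genes with an unadjusted p under 0.05 (at most 6 per direction), 4 receptors and the 3 genes nearest in pattern to the 2 members of largest SD. Lists of endothelial, immune and mesothelial markers had 0 of 10, 1 of 8 and 0 of 4 tested genes at an unadjusted p under 0.05. The values of a single listed pathway gene are not reported here.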

Additional observations from a re-analysis of the deposited data

Results flagged for a closer look

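A library standing well apart from its fellows was sought label by label. The search covered the members, the genes named by the rules above, Erbb3, Bcl6, Trib3, 9530052E02Rik, the ratios within a library and the marker sums. Irs4, Klf11, Pcbp1 and Pyroxd1 were not searched. Such a library was found in 4 of 84 sets of 4 libraries, and chance gives about 1 in 20, or 4.2. None of them is a member. In Erbb3d/d replicate 2 Gadd45a had 33.3 CPM, below 64.4 to 66.8 CPM in the other libraries of that label. In Erbb3f/f replicate 2 Fbxo32 had 436 CPM, above 264 to 270.2 CPM in the others. In Erbb3f/f replicate 3 Trib3 had 2.20 CPM, below 3.89 to 4.07 CPM, and Stx11 had 20.1 CPM, above 10.3 to 11.7 CPM.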

How the results depend on the processing

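Over 14 alternatives each, the log2 fold changes of Irs1 (0.25 to 0.37) and Irs2 (0.47 to 0.84) stayed above 0 and neither gene was called over all genes. Irs1 had an unadjusted p under 0.05 in all 14 and Irs2 in 8. Genes called over all tested genes numbered 262 with DESeq2, 52 with the replicate block, and 0 to 259 with a library left out, the highest without Erbb3d/d replicate 2. Without any other single library, edgeR called 0, and 1025 to 1621 genes had an unadjusted p under 0.05. Members with an unadjusted p under 0.05 numbered 1 with the replicate block, which left Irs1, and 1 to 2 with a library left out. Members whose groups did not overlap numbered 1 to 2 with a library left out. Other pathway genes with an unadjusted p under 0.05 numbered 4 to 18 with a library left out. They were 5 without Erbb3d/d replicate 1, 4 without replicate 4 and 18 without replicate 2. Over all tested genes these runs had 1621 of 14732, 1025 of 14712 and 2790 of 14774 at that level, in the same order. Nothing about the pathway is read from these counts. Other pathway genes called over all genes were 3 with DESeq2 and 0 to 4 with a library left out, the 4 being without Erbb3d/d replicate 2. Directions turned for Akt1 (-3.6e-05 with upper quartile scaling, -0.036 to 0.043 with a library left out), Akt2 (-0.091 to 0.060), Pik3cb (-0.048 to 0.21), Pik3r3 (-0.062 to 0.25) and Ppp1r13l (-0.072 to 0.25), each with a library left out. The cause was not tested. The replicate numbers were not taken as pairs in the main fit, because the sources used here do not say that they pair the animals. The correlation of deviations between same-numbered libraries was above 0 for each number, at 0.24, 0.17, 0.0998 and 0.15. Of the 8 libraries, 5 correlated best with their own number. Whether same-numbered libraries share a source was not tested, and with the replicate block edgeR called 52 genes in place of 0. Pik3cb, with 113 to 275 reads per library, had the fewest reads of the 8 members.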
